A study of Mus musculus with 6 samples.

Results

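Prostaglandins are made from arachidonic acid by cyclooxygenases and terminal synthases, act through G protein-coupled receptors and are broken down inside cells. A set of 10 genes of this system is described here in mouse MC/9 mast cells: the cyclooxygenases Ptgs1 and Ptgs2, the terminal synthases Ptges, Hpgds and Ptgds, the degrading enzyme Hpgd, and the receptors Ptgfr, Ptger2, Ptger3 and Ptger4. They are 10 of the 49568 genes in the deposited count table. The family was chosen from the levels of Ptgfr and Ptgs2, which lay higher with rPTH in these same libraries, so the differences between rPTH and control in its genes are given as a description, with no test. The data comprise 3 control libraries, labelled as untreated, and 3 libraries from cells given rPTH at 10 nM for 24 h. Per the series' design text, MC/9 cells were placed on osteoblasts of the mouse line 7F2, a day after those were seeded, and were collected from the treated co-culture for RNA sequencing. It is not stated whether the control mast cells were grown on osteoblasts as well. The labels do not expand rPTH, which is read here as a parathyroid hormone preparation. Each of the 2 cell types is represented by 1 established line, and no label ties the replicates to separate cultures, so the spread between libraries of a group may be technical.

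Ptgs1 is the cyclooxygenase that many cells express at rest, and Ptgs2 is its inducible counterpart. Both turn arachidonic acid, released from membranes by phospholipases A2, into the unstable intermediate prostaglandin H2. Mast cells are known for making prostaglandin D2 from it with the hematopoietic synthase Hpgds. In osteoblasts, Ptgs2 is a well-known early target of parathyroid hormone, and prostaglandin E2 made by the enzyme Ptges acts on bone cells through receptors that include those encoded by Ptger2 and Ptger4.

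Of the 10 promoters, that of Ptgs2 is shown because it was the only member window with a match to any of the 4 motifs searched, and the stretch upstream of Ptgfr is shown because Ptgfr had the largest difference of the family. The windows were RefSeq entries for GRCm38.p6, 250 bases before the start site and 50 from it on, and all 10 members were matched by symbol. Searched on both strands were TGACG (the core of the cAMP response element, CRE), TGACGTCA (the full CRE), CACGTG (an E-box) and TTGCGCAA (a palindrome bound by C/EBP factors). The first sequence below is the 250 bases before the Ptgs2 start site at chr1:150099781-150100030 on the plus strand, with the C/EBP palindrome in capitals. The next is the first 30 bases of the gene at chr1:150100031-150100060, where the capitals mark the CRE core, which lies on the minus strand, and the E-box, which overlaps it by 2 bases. The last is the 148 bases before the annotated Ptgfr start at chr3:151837631-151837778 on the minus strand, with no match to mark; the RefSeq start site lies 102 bases farther into the gene.
Ptgs2 upstream: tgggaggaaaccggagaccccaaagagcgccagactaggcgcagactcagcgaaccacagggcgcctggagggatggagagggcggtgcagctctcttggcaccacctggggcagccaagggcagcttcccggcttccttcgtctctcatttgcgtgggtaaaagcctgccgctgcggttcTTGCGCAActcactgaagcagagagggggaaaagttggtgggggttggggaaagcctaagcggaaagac
Ptgs2 start: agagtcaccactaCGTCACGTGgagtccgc
Ptgfr upstream: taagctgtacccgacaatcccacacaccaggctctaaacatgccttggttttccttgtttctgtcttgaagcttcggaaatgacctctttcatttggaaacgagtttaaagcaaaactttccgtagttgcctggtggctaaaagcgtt
Among 32851 such windows, 20.8% held TGACG, 7.15% held CACGTG, 1.79% held TGACGTCA and 0.183% held TTGCGCAA. The windows of the other 9 members held no match. A match describes these letters only, and none was tested for binding. Part of the sequence upstream of Ptgs2 lies within the noncoding gene Ptgs2os, which starts on the opposite strand.

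Library totals ran from 22282095 to 24993606 counts in the controls and from 30623648 to 33577977 with rPTH. Levels are given as CPM, counts scaled to a common library total, after correction by TMM factors for differences in RNA composition; plain CPM lacks that correction. A count of 0 allows up to 3 counts, or 0.0893 to 0.135 plain CPM over the 6 libraries, counting error only. The TMM factor of control 1 was 0.8101, and those of the other 5 libraries ran from 1.03 to 1.063. The mast cell genes Kit, Fcer1a and Cpa3 were abundant in every library. Kit, the stem cell factor receptor, was at 278 CPM in control 1, below the other 5 libraries at 456 to 606 CPM. Fcer1a and Cpa3 went the other way, with control 1 the highest library. Fcer1a was at 2070 CPM there against 1104 to 1638 CPM, and Cpa3 at 2640 CPM against 1597 to 2095 CPM. Genes of osteoblasts and stroma were also read: their summed level, over 41 of 43 listed genes found in the table, was 2535 to 2907 plain CPM in the controls and 3754 to 5771 with rPTH. In bulk RNA, fewer cells of a type and less RNA per cell cannot be told apart.

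Of the cyclooxygenases, Ptgs2 was higher in every rPTH library than in any control, and the groups of Ptgs1 overlapped. Ptgs2 (chr1:150100031-150108227, plus strand, GRCm38) had 46.1, 65.6 and 74.9 CPM in controls 1, 2 and 3, and 145, 102 and 79.5 CPM in rPTH 1, 2 and 3. The gap between the groups was narrow, from control 3 to rPTH 3, and rPTH 1 lay well above the rest. Ptgs2 means were 62.2 ± 14.7 and 109 ± 33.1 CPM (SD, n = 3 each), a ratio of 1.75, and the log2 fold change, rPTH less control, was 0.80 ± 0.28 (SE from the model). Counts behind these values ran from 910 in control 1 to 4565 in rPTH 1. Ptgs1 (chr2:36230426-36252272, plus strand) had 59.8, 44.5 and 39.8 CPM in the controls, and 65.4, 51.4 and 44.5 CPM with rPTH. Within each group library 1 was highest and library 3 lowest, and rPTH 3 lay at the level of control 2. The log2 fold change of Ptgs1 was 0.16 ± 0.23.

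**Figure D1:**
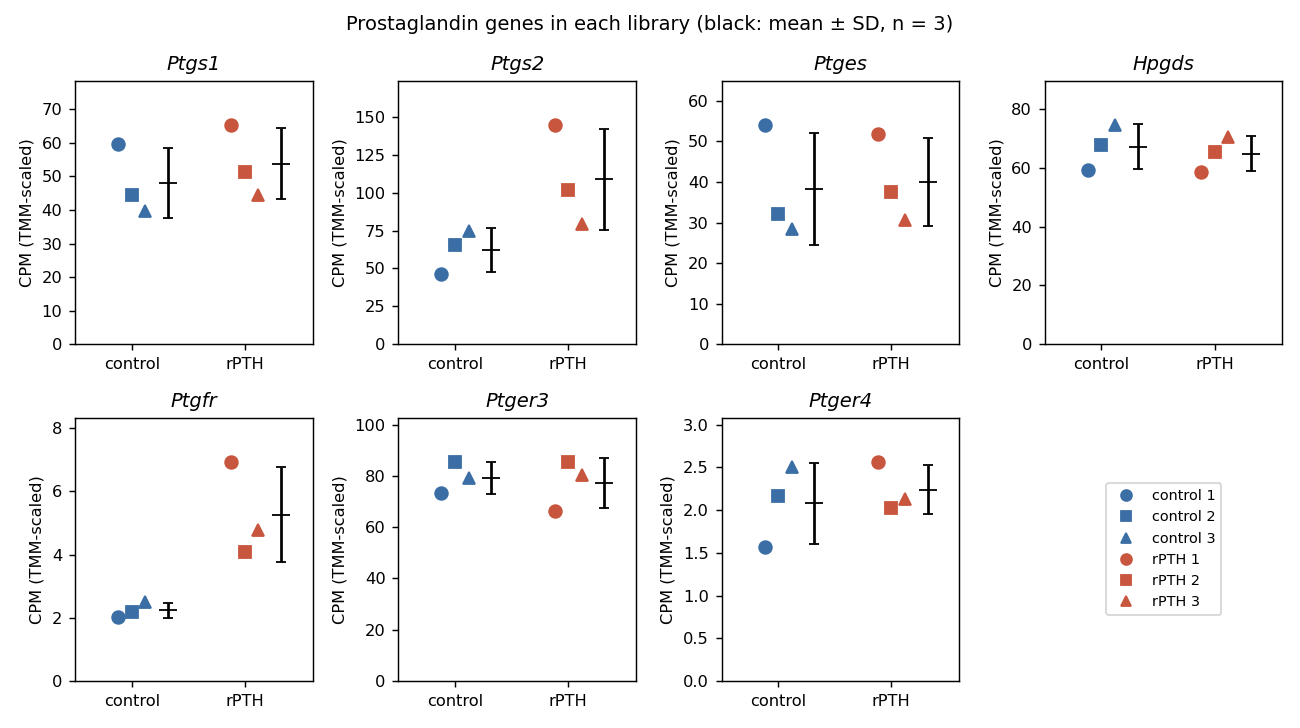
Level of each of the 7 tested genes (CPM scaled by TMM factors, each panel from 0), with 1 symbol per library, control in blue and rPTH in red, and the mean with SD of each group in black (n = 3). The groups are apart for Ptgs2 and Ptgfr, with rPTH 1 highest for both, and overlap for the other 5 genes.

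On the scale of CPM per kilobase of exon, which allows comparison of the 2 enzymes, Ptgs2 made up 39.5, 55.5 and 61.5% of the summed cyclooxygenase signal in controls 1, 2 and 3. It made up 65.3, 62.7 and 60.2% in rPTH 1, 2 and 3. The groups overlap here, since rPTH 3 lay below control 3. The means were 52.2 ± 11.4% and 62.7 ± 2.51% (SD, n = 3 each). Control 1 had the smallest share, being the lowest of the 6 libraries for Ptgs2 and the highest control for Ptgs1. The share in the other 5 libraries stayed between 55.5 and 65.3%.

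For both terminal synthases that could be tested, the control and rPTH libraries overlapped. Ptges (chr2:30889471-30929863, minus strand), which makes prostaglandin E2, had 54.1, 32.1 and 28.5 CPM in the controls and 51.8, 37.5 and 30.5 CPM with rPTH. The spread within a group exceeded the gap between the group means, and library 1 was highest in each. The log2 fold change of Ptges was 0.07 ± 0.31. Hpgds (chr6:65117293-65144908, minus strand), the synthase of prostaglandin D2 in mast cells and itself a mast cell marker, had 59.3, 67.9 and 74.7 CPM in the controls and 58.7, 65.6 and 70.5 CPM with rPTH. The rPTH libraries lay within the range of the controls, save rPTH 1, which was just under control 1. The log2 fold change of Hpgds was -0.05 ± 0.16.

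Ptgds and Hpgd were at the limit of detection. Ptgds (chr2:25466709-25470046, minus strand), the lipocalin-type D synthase, had 0 or 1 count in every library, 1 in the controls together and 2 with rPTH. Hpgd (chr8:56294585-56321043, plus strand), which inactivates prostaglandins by oxidation, also had 0 or 1 count per library, 1 in each group. No fold is given for either. Exact Poisson 95% intervals, counting error only, reached up to 0.0778 CPM in the controls for both, and up to 0.0744 CPM for Ptgds and 0.0573 CPM for Hpgd with rPTH.

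Of the 3 receptors that could be tested, Ptgfr was apart between the groups and Ptger3 and Ptger4 overlapped. Ptgfr (chr3:151796502-151837630, minus strand) encodes the receptor of prostaglandin F2 alpha, which signals through Gq. It had 40, 56 and 58 counts in the controls and 219, 141 and 170 with rPTH. In CPM these were 2.02, 2.17 and 2.503 against 6.94, 4.09 and 4.76. The controls lay close together and every rPTH library was clear of them, rPTH 1 the most. Ptgfr means were 2.23 ± 0.245 and 5.26 ± 1.49 CPM (SD, n = 3 each), a ratio of 2.36 and a log2 fold change of 1.23 ± 0.29.

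The other receptors bind prostaglandin E2. Ptger3 (chr3:157566892-157645888, plus strand) encodes EP3, which lowers cAMP, and had 73.2, 85.6 and 79.1 CPM in the controls and 66.4, 85.5 and 80.2 CPM with rPTH. Library 1 was the lowest of each group and library 2 the highest, and the log2 fold change was -0.04 ± 0.16. Ptger4 (chr15:5206661-5244187, minus strand) encodes EP4, which raises cAMP, and had 1.57, 2.17 and 2.503 CPM in the controls and 2.57, 2.03 and 2.13 CPM with rPTH. Here rPTH 1 was the highest library and the other rPTH libraries lay inside the control range, with a log2 fold change of 0.10 ± 0.30. Ptger2 (chr14:44988195-45003820, plus strand) encodes EP2, which also raises cAMP, and had 1, 1 and 0 counts in the controls and 4, 2 and 1 with rPTH. The exact Poisson 95% intervals of its summed counts were 0.00338 to 0.101 CPM in the controls and 0.0290 to 0.148 CPM with rPTH, counting error only. They overlap, which is not a test of a difference. None was run for Ptger2, and no fold is given.

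Of the 10 members, 7 passed the filter on low counts, and 3 (Ptgds, Hpgd and Ptger2) did not. In 2 of the 7 tested members all rPTH libraries lay above all controls, and in none did they lie below. The background is 8.44% of 16696 tested genes with higher rPTH libraries and 8.39% with lower ones. Both are the genes for which the family was chosen, so nothing is read from that count. The edgeR quasi-likelihood test with Benjamini-Hochberg adjustment called no gene of the whole table at an adjusted p under 0.05, or 0%. It gave 1314 genes at an unadjusted p under 0.05, and the smallest adjusted p of any gene was 0.619. On the same counts limma-voom called 0 genes and DESeq2 called 5, none of them a member. The median log2 fold change of the 7 tested members was 0.10, beside a median of -0.09 over all tested genes. The 7 include Ptgs2 and Ptgfr, for which the family was chosen, so nothing is read from that median either.

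**Figure D2:**
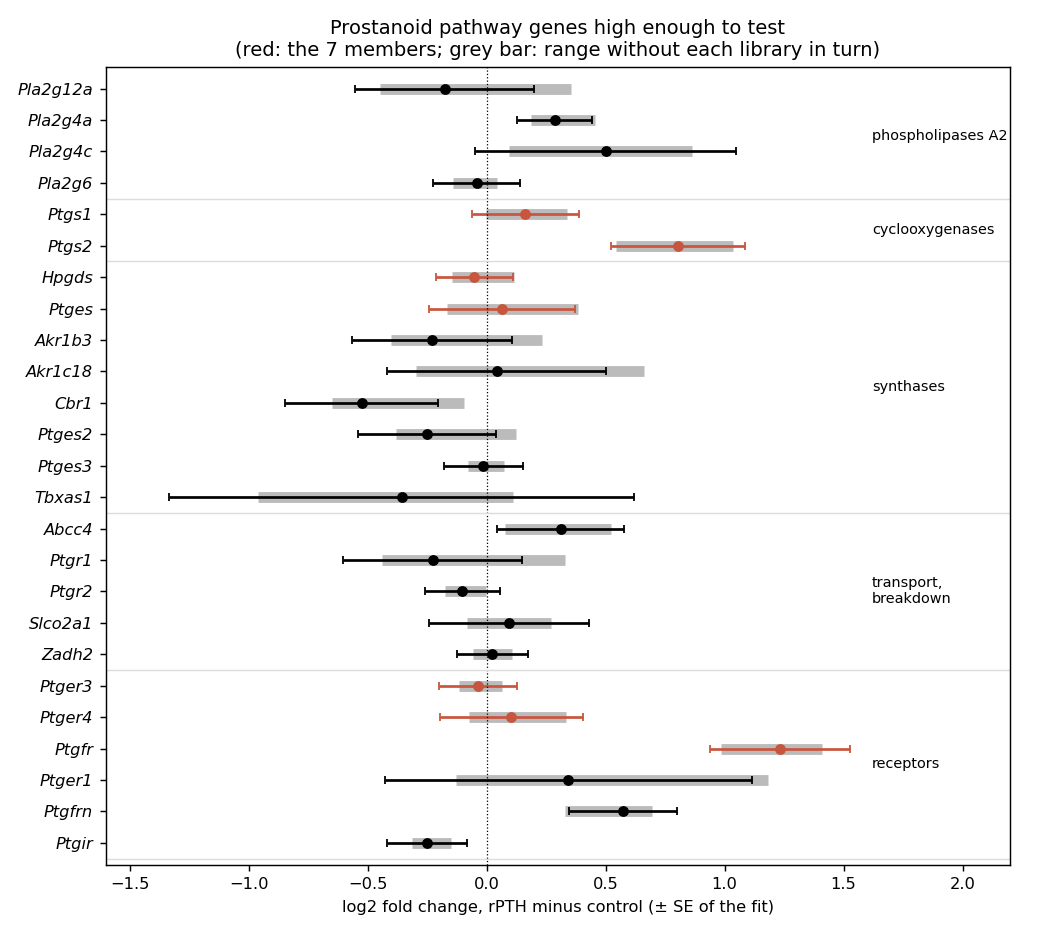
Log2 fold change of the tested pathway genes, grouped by role, as points with bars for the SE of the model; members are red, other genes black, and grey bars span the values when each library is left out in turn. Ptgs2 and Ptgfr are the members whose grey bars stay clear of 0, at 0.54 or more and 0.99 or more. Both are the genes for which the family was chosen, so nothing is read from this.

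The log2 fold changes depend a little on scaling: the median of all tested genes lay at -0.09 with TMM factors and at 0.04 with plain library totals, a shift of 0.13. Relative to that median, Ptgs2 was 0.89 with TMM factors and 0.85 with plain totals, and Ptgfr was 1.32 and 1.30. Hpgds and Ptger3 were at or near the median on both scales, at 0.04 and 0.02 for Hpgds and 0.05 and 0.04 for Ptger3. Their signs as measured differ between the scales, at -0.05 and 0.06 for Hpgds and -0.04 and 0.08 for Ptger3, so no direction is given for them. In the authors' deposited table the log2 fold changes were 0.75 for Ptgs2, 1.13 for Ptgfr, 0.23 for Ptgs1, 0.02 for Hpgds and 0.04 for Ptger3. The DESeq2 fit made here gave 0.85, 1.29, 0.23, 0.002 and 0.02 in the same order. The deposited values may therefore be a different measure from the folds given here.

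Per kilobase of exon, which allows comparison between genes, Ptger3 (13.9 ± 1.10 CPM), Ptgs2 (13.6 ± 3.22 CPM), Ptgs1 (12.4 ± 2.69 CPM), Hpgds (10.5 ± 1.20 CPM) and Ptges (9.72 ± 3.52 CPM) lay within a narrow range in the controls (SD, n = 3). No neighbours in that order differed beyond their spread. Ptgfr (0.329 ± 0.0362 CPM) and Ptger4 (0.313 ± 0.0711 CPM) were far lower, and did not differ from each other beyond their spread. With rPTH, Ptgs2 was highest at 23.7 ± 7.23 CPM per kilobase and Ptgs1 followed at 13.8 ± 2.73. Ptgfr reached 0.777 ± 0.220 CPM per kilobase with rPTH, still far below Ptger3 at 13.6 ± 1.73.

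**Figure D3:**
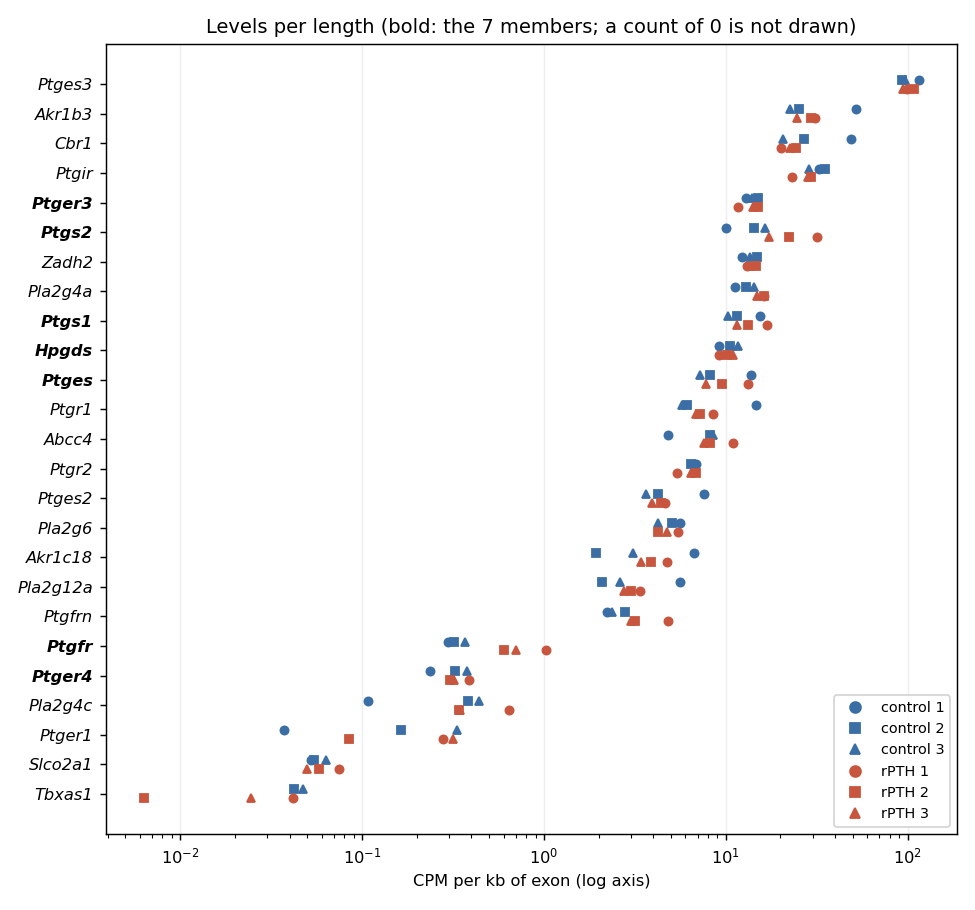
Level of every tested pathway gene in each library, in CPM per kilobase of exon on a log axis, ordered by control mean, with members in bold, control in blue and rPTH in red. In every library Ptgfr and Ptger4 lie below Ptger3, Ptgs2, Ptgs1, Hpgds and Ptges.

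The rest of the prostanoid pathway was followed on a list of 36 other genes, of which 18 passed the filter on low counts; the other 18 had at most 60 counts over all libraries. In the edgeR test 0 of 18 passed in either direction, with adjusted p from 0.619 to 0.976, and 1, Ptgfrn, had an unadjusted p under 0.05. DESeq2 and limma-voom also called 0. The list lay 8 above 0 and 10 below, with a median of -0.03 beside -0.09 over all tested genes. In Pla2g4a and Ptgfrn all rPTH libraries lay above all controls, 2 of 18 beside 8.44% of all tested genes.

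Upstream of the cyclooxygenases, 4 of 17 phospholipases A2 were tested. Pla2g4a, the cytosolic enzyme that releases arachidonic acid, had 72.3, 82.9 and 92.0 CPM in the controls and 103, 104 and 94.6 CPM with rPTH. The gap between control 3 and rPTH 3 was small, and the log2 fold change was 0.29 ± 0.16 with an adjusted p of 0.628 (edgeR). Pla2g6 and Pla2g12a overlapped, at log2 fold changes of -0.04 and -0.18. Of 8 other synthases 6 were tested, 1 above 0 and 5 below, with a median of -0.24 and no call. Ptges3, a cochaperone that can also make prostaglandin E2, was at 226 ± 25.8 and 224 ± 15.1 CPM. The groups of Ptges3 overlapped with TMM factors, whereas in plain CPM every rPTH library lay above every control, by a very narrow margin. Akr1b3, an aldo-keto reductase with prostaglandin F synthase activity, was at 278 ± 136 and 238 ± 28.0 CPM. Cbr1, a carbonyl reductase that can convert prostaglandin E2 to F2 alpha, was at 82.1 ± 38.2 and 57.1 ± 5.56 CPM, a log2 fold change of -0.53 ± 0.32. Control 1 decided that value: it had 125 CPM, and without it the log2 fold change was -0.10.

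All 5 genes of transport and breakdown were tested, 3 above 0 and 2 below. Abcc4, which exports prostaglandins, was at 46.0 ± 13.2 and 57.1 ± 11.7 CPM. Zadh2 and Ptgr2, reductases of keto-prostaglandins, were at 48.0 ± 4.68 and 48.8 ± 2.71 CPM and at 39.6 ± 1.14 and 37.0 ± 4.48 CPM. None of the 3 was apart between the groups. Of the other receptors, Ptgir, which binds prostacyclin, was at 107 ± 10.8 and 89.9 ± 11.1 CPM, with a log2 fold change of -0.25 ± 0.17, and Ptger1 (EP1) was at 0.968 ± 0.808 and 1.24 ± 0.682 CPM. Ptgfrn, a protein that binds the F receptor and lowers its ligand binding, had 23.2, 29.2 and 24.9 CPM in the controls and 50.3, 33.2 and 31.6 CPM with rPTH. As for Ptgfr itself, rPTH 1 was the highest library and the groups were apart. The log2 fold change of Ptgfrn was 0.57 ± 0.23, with an edgeR adjusted p of 0.619, and it was 0.33 without rPTH 1. The receptors of prostaglandin D2, Ptgdr and Ptgdr2, named after their values were seen, had 3 and 24 counts over all 6 libraries.

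The summed level of osteoblast and stromal genes was also higher in every rPTH library than in any control. Of the 34 tested genes edgeR called 0, with 14 at an unadjusted p under 0.05; limma-voom also called 0 and DESeq2 called 1, Thbs2. The sum was 2535, 2907 and 2875 plain CPM in controls 1, 2 and 3 and 5771, 3754 and 3989 in rPTH 1, 2 and 3, so rPTH 1 was highest and control 1 lowest, as for Ptgs2 and Ptgfr. The libraries between them were not all in the order of Ptgs2, since rPTH 3 had a higher sum than rPTH 2 and a lower Ptgs2 level. The means were 2772 ± 206 and 4505 ± 1103 CPM, with an exact two-sided permutation p of 0.1, the smallest that 3 against 3 can give. On this list 32 of 34 tested genes lay above 0 and 2 below, beside 41.5% of all tested genes above 0. The median was 0.55 beside -0.09 over all tested genes, and 18 of 34 were apart on the high side, beside 8.44%. Lox, which crosslinks collagen, was at 48.4 ± 7.34 and 94.5 ± 26.6 CPM, and Col1a1 at 155 ± 15.5 and 217 ± 72.1 CPM. Of the osteoblast genes, named after their values were seen, Runx2 was at 17.5 to 20.1 CPM in the controls and 23.2 to 35.5 CPM with rPTH. Sp7 was at 0.354 to 0.503 and 0.672 to 0.983 CPM, and Alpl and Spp1 were present in every library with groups that overlap. These levels of single genes include the TMM correction, unlike the sums. In plain CPM the groups of Alpl and of Col1a1, which overlap with TMM factors, were apart by a narrow margin. The 7 listed genes too low to test (Bglap, Bglap2, Ibsp, Dmp1, Dcn, Lum and Tnfsf11) were at 0 to 0.253 CPM. Mast cell markers summed to 15970 ± 1708 and 15390 ± 2036 plain CPM (exact permutation p = 0.5), a difference of -585 CPM that was -1980 CPM with TMM factors (exact permutation p = 0.1). Of 21 tested mast cell markers 7 lay above 0 and 14 below, with a median of -0.23, and 6 were apart on the low side and 0 on the high side, beside 8.39% and 8.44% of all tested genes. Adipocyte markers summed to 63.4 ± 15.5 and 92.8 ± 25.1 plain CPM (exact permutation p = 0.2).

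Divided by the stromal sum, the groups of Ptgs2 overlapped and those of Ptgfr did not. Per 1000 plain CPM of stromal markers, Ptgs2 had 14.7, 23.4 and 27.1 in the controls and 25.8, 28.4 and 21.2 with rPTH. With rPTH 3 under controls 2 and 3, the ratio of means was 1.16. On the same scale Ptgfr had 0.647, 0.771 and 0.906 in the controls and 1.24, 1.14 and 1.27 with rPTH, a ratio of 1.57. The 3 rPTH libraries were then alike for Ptgfr, and all above the controls. Ptgfrn had a ratio of 0.994 with overlap, while Ptgs1 (0.768) and Hpgds (0.678) were lower in every rPTH library than in any control. Per 1000 plain CPM of mast cell markers, Ptgs2 (ratio 2.04), Ptgfr (2.76), Ptgfrn (1.74) and, by a narrow margin, Ptger3 (1.105) were higher in every rPTH library, and Ptgs1, Ptges, Hpgds and Ptger4 overlapped. Before division, the groups of Ptgs1, Hpgds and Ptger3 overlapped. The stromal sum was itself higher with rPTH, so a gene with an unchanged level is lower on that quotient. The share of all tested genes apart on either quotient was not computed, so nothing is read from which members were apart. These quotients were chosen after seeing the data, and the part of stromal RNA in the levels of Ptgs2 and Ptgfr was not tested.

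**Figure D4:**
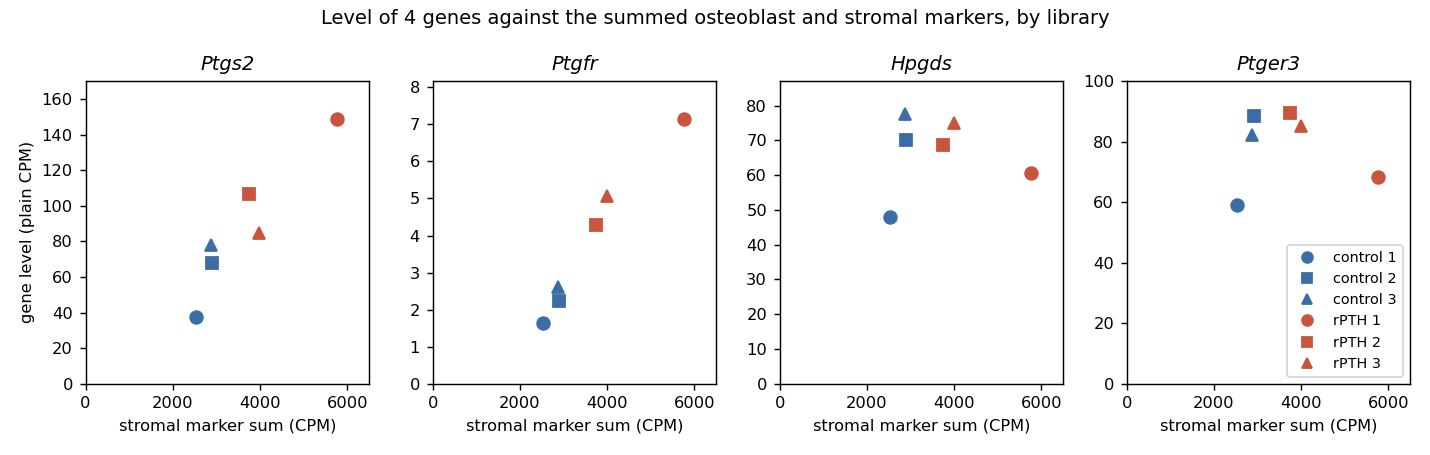
Level of Ptgs2, Ptgfr, Hpgds and Ptger3 against the summed osteoblast and stromal markers, both in plain CPM, with 1 symbol per library, control in blue and rPTH in red. For Ptgs2 and Ptgfr, rPTH 1 has the highest level and the highest sum (5771) and control 1 the lowest of both. Control 1 is also the lowest library for Hpgds and Ptger3 on this scale, but rPTH 1 is not the highest for them.

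Without rPTH 1, the log2 fold change was 0.54 for Ptgs2 and 0.99 for Ptgfr. Groups that are apart over all 6 libraries must stay apart when 1 is left out, so nothing is read from their separation. Of all tested genes, 9.48% were then apart on the high side. Without control 1, Ptgs1 was the only further member apart, beside 16.7% of all tested genes on the high side. Ptgs2 and Ptgfr were apart there for the same reason as above. Both of these comparisons were added after seeing the data.

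The members followed different courses over the 6 libraries. Likeness was measured as the root mean square difference between log2 CPM profiles, each centred on its own mean. Among the members it was smallest between Hpgds and Ptger3 (0.104) and next between Ptgs1 and Ptges (0.132), both pairs that overlap between the groups. Ptgs2 and Ptgfr differed by 0.291: the centred values of Ptgs2 were -0.80, -0.29 and -0.10 in the controls and 0.85, 0.35 and -0.01 with rPTH, and those of Ptgfr were -0.72, -0.63 and -0.42 and then 1.02, 0.27 and 0.48. Ptgs2 thus varied more among the controls, and its rPTH 3 lay near its mean. Of 14521 genes with at least 1 CPM, Sema3a, a secreted semaphorin, was most like Ptgfr (0.092), at 7.78 ± 1.38 and 16.7 ± 4.82 CPM. Tlr3, a sensor of double-stranded RNA, followed (0.123), and then Morc4 (0.143). Most like Ptgs2 were Npnt, an integrin ligand (0.058), Sema3c, another secreted semaphorin (0.064), and Gprc5b (0.070). Sema3c was at 93.8 ± 24.2 and 162 ± 41.0 CPM. These are descriptions over 6 libraries.

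Around Ptgs2, 5 of 12 annotated genes within 300 kb were tested. They were named after their values were seen, except Pla2g4a. Ptgs2os, a noncoding gene that starts 0.07 kb from Ptgs2 on the opposite strand, had 2.99, 2.36 and 2.93 CPM in the controls and 5.39, 3.62 and 3.03 CPM with rPTH. The groups were apart by a narrow margin, as for Ptgs2, and 67 bases separate the annotated genes. The log2 fold change of Ptgs2os was 0.54 ± 0.31, and 0.27 without rPTH 1. Ptgs2os2, farther downstream, overlapped at 6.38 ± 1.97 and 8.04 ± 2.82 CPM. Around Ptgfr, 1 of 12 genes was tested: Ifi44, an interferon-induced gene on the same strand, with 46541 bases between them. Ifi44 too was named after its values were seen. Ifi44 had 2.99, 1.86 and 2.98 CPM in the controls and 6.37, 4.84 and 6.92 CPM with rPTH. Its groups were apart, but its highest library was rPTH 3, where that of Ptgfr was rPTH 1.

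**Figure D5:**
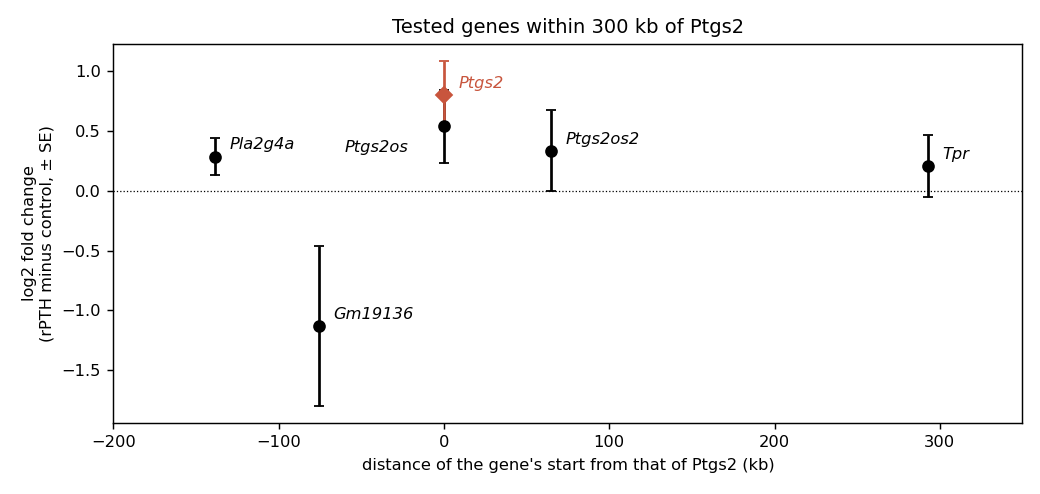
Log2 fold change, rPTH less control, with the SE of the model as bars, of the tested genes within 300 kb of Ptgs2, against the distance of each start from that of Ptgs2. Ptgs2 (red) is highest at 0.80, Ptgs2os beside it is at 0.54, and the pseudogene Gm19136, with 139 of its counts in control 3, is the only one below 0.

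Some members share exon bases with other annotated genes. Ptgs1 shares 148 with Gm43621 and Ptgfr shares 329 with Gm43618, which had 0 to 6 counts per library against 40 to 219 for Ptgfr. Ptger4 shares 82 with Ttc33, which had 16.3 ± 1.23 and 14.7 ± 0.556 CPM, and Ptger2 shares 246 with Gm17173, which had 3 to 25 counts. Ptger4 also shares 1015 with the pseudogene Gm15937, which had 0 counts, and Ptger2 shares 144 with Gm49364. All of these genes lie on the strand opposite the member. Gm13400, Gm17147 and Gm45540 lie within Ptges, Hpgds and Hpgd and share no exon base with them. No source used here states whether the authors counted by strand, which leaves these stretches uncertain, above all for Ptger2 and Ptger4.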

How the data were processed

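RNA was sequenced from MC/9 libraries, 3 control and 3 rPTH. The authors deposited a count per gene and library, as whole numbers that are not normalized, and a table of their own comparison with a log2 fold change and p-value per gene. The submitters' processing notes name STAR 2.5.2b, Trimmomatic 0.36, featureCounts of Subread 1.5.0p3, DESeq2 1.12.4 and R 3.3.0, without roles, and the builds GRCm38.p5 and mm9. The annotation and strand setting are not given in the sources used here. Counts were tested over the whole table with edgeR 4.0.16 in R 4.3.3, quasi-likelihood with robust fit, TMM factors and filterByExpr at a minimum count of 10, which left 16696 of 49568 genes. Calls used an adjusted p under 0.05. Alternatives used DESeq2 1.42.0, limma 3.58.1, other scalings and filters, a replicate block, and each library left out. A further alternative removed the trend of each library's log2 levels with exon length and GC content (the share of G and C bases). Genes named besides the members are the 3 most abundant tested genes of each pathway role, any with groups that do not overlap, the 3 genes most like Ptgfr and Ptgs2 in pattern, Col1a1, Lox, Kit, Fcer1a and Cpa3 as cell type checks, and genes that overlap a member. The text says which others were named after their values were seen; the low stromal genes are all of that list that failed the filter. Members and lists were chosen with earlier results of these data known. Coordinates and exon lengths are GENCODE M21 (GRCm38).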

Additional observations from a re-analysis of the deposited data

How the results depend on the processing

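Every edgeR setting and limma-voom called 0 genes, and DESeq2 called 5, none of them a member: Pde8a (log2 fold change 1.14), Olfr56 (0.95), Thbs2 (0.93), Gm11694 (-1.16) and Gm7079 (-1.45), named after their values were seen. Genes at an unadjusted p under 0.05 numbered 1314, against 1838 with DESeq2, 863 with limma-voom, 2377 with no filter on low counts, and 272 to 2165 with 1 library left out. With the trend in length and GC content removed there were 808. The log2 fold change of Hpgds was then -0.275, against -0.052 in the main fit, and that of Ptger4 was -0.08, against 0.104. Ptgfr had its lowest value there, 0.974. No label says that the replicate numbers pair the libraries. Correlations of same-numbered deviations were -0.131, -0.323 and 0.142, which with 3 libraries per group cannot decide it. With a replicate block 0 genes were called and 525 had an unadjusted p under 0.05. Over 14 alternatives the log2 fold change of Ptgs2 ran from 0.54 to 1.03 and that of Ptgfr from 0.97 to 1.41, with no change of sign, whereas the sign changed in 1 for Ptgs1, 2 for Ptges, 3 for Ptger4, 6 for Hpgds and 7 for Ptger3. The family was chosen for the higher levels of Ptgs2 and Ptgfr in these libraries, so their steady sign is a description only. The difference in summed stromal markers ran from 1099 to 2108 CPM with 1 library left out. The difference in summed mast cell markers, -585 CPM, reversed to 7.00 CPM without control 2 and to 587 CPM without rPTH 1, in a range from -1564 to 587 CPM with 1 library left out; it was -1980 CPM with TMM factors and -0.23 as a mean log2 level (exact permutation p = 0.1 for both). The lowest exact p with a library left out is 0.2. Ptgds, Hpgd and Ptger2 are limited by depth.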
